A study of Mus musculus with 11 samples.

Results

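MMERVK10C and the RLTR10 elements are mouse endogenous retroviruses of the ERVK class, and their individual genomic copies were measured in testes of 4 genotypes at postnatal day 5 (P5). The copies were chosen by name: every annotated copy whose subfamily is MMERVK10C-int or begins with RLTR10, with a deposited TPM value (reads per length of the copy, scaled to a fixed total per library) above 0 in at least 1 library. This gave 3682 copies out of 14112 annotated ones, in a series where 578629 of 3725827 annotated transposable element copies were above 0. They comprised 1188 copies of MMERVK10C-int, 786 of RLTR10-int, 625 of RLTR10C, 408 of RLTR10, 185 of RLTR10B2, 158 of RLTR10A, 95 of RLTR10D, 87 of RLTR10B, 53 of RLTR10E, 50 of RLTR10F and 47 of RLTR10D2. Over all 11 libraries they held 85245 reads, between 0.388% and 1.94% of the reads that a library had on element copies.

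The groups were 2 wild-type (WT) libraries, 3 from Dnmt3C KO mice, 3 from Nrf1 cKO mice and 3 from mice with both changes (dKO). Dnmt3C KO mice were homozygous for a constitutive deletion of the germline DNA methyltransferase DNMT3C. Nrf1 cKO mice carried 1 floxed and 1 deleted allele of the transcription factor NRF1, with a Ddx4-driven Cre that acts in germ cells. Somatic cells of the testis therefore keep NRF1 in that model. The animals were on a C57Bl6/J background, whole testes with germ cells and somatic cells were sampled, and poly-A RNA was sequenced. Fewer germ cells and less RNA per germ cell cannot be told apart in such bulk samples. The paper used littermate controls where it could, but nothing in the sources used here ties a replicate number to a litter. The p-values measure the spread between these libraries.

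A provirus of this group has an internal part with the retroviral genes, annotated as MMERVK10C-int or RLTR10-int, between a pair of long terminal repeats (LTRs), annotated as RLTR10 and its lettered forms. Transcription starts in the upstream LTR, which thus acts as the promoter, while many LTRs remain in the genome alone after the internal part is lost by recombination. In foetal male germ cells DNMT3C methylates the promoters of young retrotransposons, and NRF1 is an activator whose binding to its GC-rich motif is blocked by CpG methylation. The comparison of the 4 genotypes asks which of these copies change their RNA level when DNMT3C is missing, and whether NRF1 loss changes that level.

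The LTR families differ in the short promoter elements they carry, and the stretches below show examples of their 5′ parts. They come from loci with 0 to 541 reads whose sequence was at hand, not from the loci with most reads. Each is 300 bases of the 5′ part of an LTR on GRCm38, taken from GENCODE M21 transcripts or RefSeq promoter windows that run over it, and read on the strand of the element. Capitals mark CCAAT, the box bound by NF-Y, or ATTGG where it lies on the other strand, and TGCGCA, the core of the NRF1 site. The first 3 are RLTR10C, the LTR of most loci that were higher without DNMT3C, at chr5:117302181-117302480 (minus strand), chr8:4687865-4688164 (minus) and chr11:52162616-52162915 (minus). RLTR10B2 lies at chr4:132265812-132266111 (minus) and RLTR10B at chr4:43622322-43622621 (plus), while RLTR10 at chr5:107255342-107255641 (plus) and RLTR10F at chr4:3256853-3257152 (minus) are shown for contrast.
RLTR10C_dup587: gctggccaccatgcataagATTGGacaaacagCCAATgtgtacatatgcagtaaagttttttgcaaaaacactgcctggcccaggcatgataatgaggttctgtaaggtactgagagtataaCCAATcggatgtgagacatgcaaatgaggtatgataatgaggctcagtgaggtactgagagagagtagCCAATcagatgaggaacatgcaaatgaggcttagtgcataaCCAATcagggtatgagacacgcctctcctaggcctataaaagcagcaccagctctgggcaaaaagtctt
RLTR10C_dup812: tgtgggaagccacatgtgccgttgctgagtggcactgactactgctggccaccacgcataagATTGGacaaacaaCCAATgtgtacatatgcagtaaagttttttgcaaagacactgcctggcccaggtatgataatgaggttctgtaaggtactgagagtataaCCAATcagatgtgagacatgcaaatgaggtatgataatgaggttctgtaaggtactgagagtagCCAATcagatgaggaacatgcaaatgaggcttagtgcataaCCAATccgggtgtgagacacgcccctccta
RLTR10C_dup1171: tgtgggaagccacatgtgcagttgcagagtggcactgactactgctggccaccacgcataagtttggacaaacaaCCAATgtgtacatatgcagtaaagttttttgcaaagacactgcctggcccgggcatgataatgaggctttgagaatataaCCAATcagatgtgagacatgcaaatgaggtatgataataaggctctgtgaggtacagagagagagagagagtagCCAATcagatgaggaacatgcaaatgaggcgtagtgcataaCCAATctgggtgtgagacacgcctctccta
RLTR10B2_dup189: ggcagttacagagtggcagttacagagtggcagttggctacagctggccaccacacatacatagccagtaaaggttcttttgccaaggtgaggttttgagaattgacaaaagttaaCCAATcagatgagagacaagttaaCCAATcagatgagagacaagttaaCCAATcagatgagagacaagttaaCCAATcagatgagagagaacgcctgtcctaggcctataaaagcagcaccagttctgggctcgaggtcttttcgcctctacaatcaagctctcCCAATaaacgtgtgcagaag
RLTR10B_dup104: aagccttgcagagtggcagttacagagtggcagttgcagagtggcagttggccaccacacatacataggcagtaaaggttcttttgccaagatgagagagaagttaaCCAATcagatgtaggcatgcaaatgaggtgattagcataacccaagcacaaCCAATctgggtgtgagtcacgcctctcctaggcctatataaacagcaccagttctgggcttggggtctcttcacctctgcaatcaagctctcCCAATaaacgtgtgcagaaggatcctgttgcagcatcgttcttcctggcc
RLTR10_dup827: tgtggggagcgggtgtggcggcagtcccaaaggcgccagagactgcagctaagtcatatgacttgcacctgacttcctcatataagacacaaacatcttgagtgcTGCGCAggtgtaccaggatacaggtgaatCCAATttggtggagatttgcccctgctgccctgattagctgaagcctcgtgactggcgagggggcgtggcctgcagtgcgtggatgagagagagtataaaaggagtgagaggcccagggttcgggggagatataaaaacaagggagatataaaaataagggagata
RLTR10F_dup120: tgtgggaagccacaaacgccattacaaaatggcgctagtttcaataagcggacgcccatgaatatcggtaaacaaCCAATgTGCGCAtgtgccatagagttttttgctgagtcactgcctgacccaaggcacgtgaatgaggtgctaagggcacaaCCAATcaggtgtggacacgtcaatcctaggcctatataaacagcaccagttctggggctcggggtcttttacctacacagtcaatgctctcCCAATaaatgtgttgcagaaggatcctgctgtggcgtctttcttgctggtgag

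Of 6855 LTR copies of at least 300 bases, 84 had 300 bases of their 5′ part in a sequence at hand, and only these were searched, on both strands. In 74 the stretch began at the first base of the LTR and in 10 up to 52 bases further in. All 21 RLTR10C stretches held at least 3 CCAAT boxes, 79 boxes on the strand of the element and 7 on the other, and so did the 4 of RLTR10B2 and the 4 of RLTR10B. None of the stretches of these 3 subfamilies held TGCGCA. In RLTR10 the letters were the other way round, with TGCGCA in 23 of 25 stretches and 3 or more CCAAT boxes in none. RLTR10E and RLTR10F held both kinds, with at least 3 CCAAT boxes in 4 of 4 stretches each and TGCGCA in 2 of 4 each. The longer palindromic NRF1 consensus was found in 2 of 84, both RLTR10D. The CRE sequence TGACGTCA was found in none of the 84 and its shorter form TGACG in 18. Among all 32817 RefSeq promoter windows of the same length, 3.37% held at least 3 CCAAT boxes, 7.75% held TGCGCA, 4.59% held the longer consensus, 1.79% held TGACGTCA and 20.8% held TGACG, where the longer consensus can overlap TGCGCA and TGACGTCA contains TGACG. CpG dinucleotides numbered 1 to 6 in the RLTR10C stretches (median 4) and 6 to 11 in RLTR10 (median 8). These are matches of letters in a window, not binding sites.

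The libraries held 26063590 to 39365841 counts on 33188 genes and 1088 element subfamilies, and 525115 to 1071134 reads on element copies. Germ cell markers differed between genotypes: the mean log2 level over 26 of 26 listed genes was 3.46 in WT, 3.69 in Dnmt3C KO, with 2.204 for Nrf1 cKO and 2.93 for dKO. All 3 Nrf1 cKO libraries lay below both WT libraries, and all 3 dKO libraries below the 3 Dnmt3C KO libraries. Sertoli cell markers (9 of 9 listed) averaged 7.36 to 7.81 over the genotypes. Of 4 further somatic lists, macrophage markers were higher in all 3 Dnmt3C KO libraries than in WT, at 4.32 against 3.94, and endothelial markers in all 3 Nrf1 cKO libraries, at 5.65 against 5.20. The germ cell RNA helicase Ddx4 had a mean CPM (counts scaled to a fixed library total) of 63.3 in WT, with an SD of 3.47 over 2 libraries, against 25.5 with an SD of 11.9 over 3 in Nrf1 cKO. The counts of Nrf1 and Dnmt3c themselves were alike in all genotypes, 50.3 to 59.5 and 3.79 to 4.51 CPM on average, and do not check the labels. How much of them came from somatic cells or from altered alleles was not tested.

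MMERVK10C-int, the internal region, was higher in every library that lacked DNMT3C than in every library that had it. Its level was 84.0 and 81.8 CPM in WT, against 402, 189 and 240 in Dnmt3C KO. It was 33.8, 53.6 and 51.6 CPM in Nrf1 cKO, against 303, 212 and 165 in dKO. The means were 82.9 ± 1.59 (SD, n = 2) in WT, 277 ± 111 in Dnmt3C KO, with 46.3 ± 10.9 for Nrf1 cKO and 226 ± 70.4 for dKO (SD, n = 3 each). The first Dnmt3C KO library and the first dKO library were the highest of their groups.

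The LTRs RLTR10C and RLTR10B2 showed the same order. RLTR10C had 11.5 and 8.78 CPM in WT, 47.5, 26.4 and 27.9 in Dnmt3C KO, with 6.25, 11.2 and 11.5 for Nrf1 cKO and 36.6, 27.7 and 21.3 for dKO. RLTR10B2 had 1.62 and 2.16 CPM in WT, 8.13, 4.12 and 5.18 in Dnmt3C KO, with 1.34, 2.12 and 1.36 for Nrf1 cKO and 5.96, 6.06 and 4.00 for dKO. For both LTRs the lowest library without DNMT3C was above the highest library with it. Such a complete separation held for 3 of the 11 subfamilies, beside 0.664% of the 904 element subfamilies tested (6 subfamilies) and 0.168% of all 22594 features. IAPEz-int, the internal region of the IAP elements, overlapped, at 273 and 373 CPM in WT and 352 to 757 CPM in dKO. Within each pair it did separate, with all Dnmt3C KO libraries above WT and all dKO libraries above Nrf1 cKO. With CPM scaled to equal germ cell markers, only MMERVK10C-int still separated over all libraries. RLTR10C then had 19.2 to 21.9 scaled CPM in Dnmt3C KO against 7.15, 27.1 and 23.6 in Nrf1 cKO. RLTR10B2 had 3.31 to 3.75 against 1.53, 5.14 and 2.77.

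**Figure D1:**
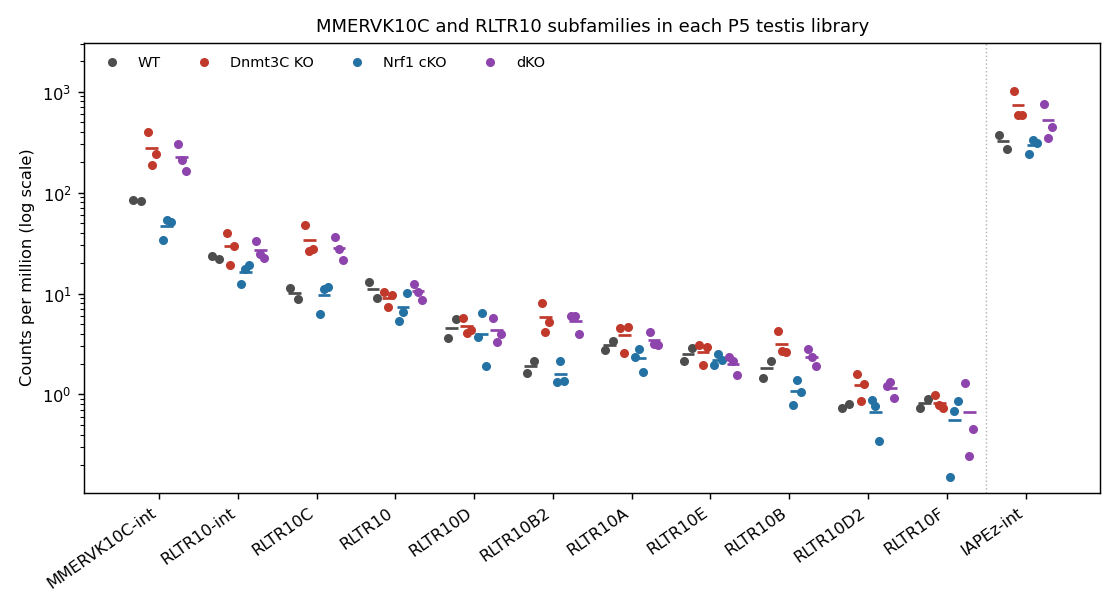
CPM (log scale) of each MMERVK10C and RLTR10 subfamily and, right of the dotted line, of IAPEz-int. Each point is 1 library, each line the mean of a genotype. For MMERVK10C-int, RLTR10C and RLTR10B2 all 6 points of Dnmt3C KO and dKO lie above the other 5.

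The effect of DNMT3C loss was estimated from all 11 libraries with the Nrf1 state in the model, by edgeR's quasi-likelihood test with Benjamini-Hochberg adjustment over all genes and subfamilies. MMERVK10C-int rose by 2.04 on the log2 scale (standard error 0.22, adjusted p = 0.00457 from edgeR). It was the only feature of 22594 past an adjusted p of 0.01 (0.00443%). With a block for the replicate number, none of the 11 subfamilies was called. Leaving out each library in turn gave estimates from 1.88 to 2.16, but none of the 11 subfamilies was called without either WT library, Dnmt3C KO replicate 1, any 1 of the Nrf1 cKO libraries or dKO replicate 2 (0 called each), and 2 were called without dKO replicate 3. RLTR10C and RLTR10B2 were at 1.64 (standard error 0.21, adjusted p = 0.0116) and 1.68 (standard error 0.23, adjusted p = 0.0191) in the same edgeR fit. With DESeq2's Wald test all 3 were called, against 0.073% of features. IAPEz-int, at 0.98 (standard error 0.21, adjusted p = 0.324 from edgeR), was called by DESeq2 too (adjusted p = 0.00361 from DESeq2). With germ cell markers set equal between libraries instead, the estimate for MMERVK10C-int was 1.41 (adjusted p = 0.0368 from edgeR), and no subfamily passed. That scaling moved the median of all features by -0.49, and relative to the median MMERVK10C-int was at 1.91. It moves all features of a library together, so the value relative to the median is not a separate test.

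The other subfamilies spread from no change to a small difference. RLTR10B, an LTR at 1.46 and 2.16 CPM in WT and 2.61 to 4.25 CPM in Dnmt3C KO, had an estimate of 0.98 (standard error 0.24, adjusted p = 0.581 from edgeR). RLTR10D2 was at 0.74, RLTR10-int at 0.56 and RLTR10A at 0.49, with standard errors of 0.29, 0.18 and 0.22 and adjusted p of 1 each from edgeR. RLTR10, RLTR10F, RLTR10D and RLTR10E lay between -0.04 and 0.16, with standard errors from 0.21 to 0.44. RLTR10-int was 22.8 CPM in WT, 29.5 in Dnmt3C KO, with 16.4 for Nrf1 cKO and 26.7 for dKO on average, and RLTR10 was 13.01 and 9.08 CPM in the WT libraries, with means of 9.11 for Dnmt3C KO, 7.34 for Nrf1 cKO and 10.48 for dKO. Scaled to equal germ cell markers, RLTR10-int, RLTR10A, RLTR10, RLTR10D, RLTR10E and RLTR10F had estimates below 0, between -0.63 and -0.03, where the median of all features was -0.49.

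The DNMT3C comparison can be made in NRF1-intact and in NRF1-deleted testes with no library in common. Dnmt3C KO against WT gave log2 fold changes of 1.74 for MMERVK10C-int, 1.74 for RLTR10C and 1.62 for RLTR10B2, with standard errors of 0.28, 0.26 and 0.35. The comparison of dKO with Nrf1 cKO gave 2.29, 1.57 and 1.73, with standard errors of 0.26, 0.27 and 0.32. Germ cell markers also differed between dKO and Nrf1 cKO, at 2.93 and 2.204, and scaled to equal markers the 3 values of this pair were 1.40, 0.67 and 0.87, with the median of all features at -0.72. By edgeR none of the 11 subfamilies was called in either comparison, against 0.0% of all features. At an unadjusted p under 0.05 there were 4 higher in the first and 5 higher in the second, out of 1.93% and 9.67% of all element subfamilies, and DESeq2 called 3 in each, against 0.1% and 0.0241% of all features. With no filter on low counts edgeR called 3 and 2. The difference between the 2 fold changes, the interaction, was 0.55 for MMERVK10C-int with a standard error of 0.41 (adjusted p = 0.917 from edgeR), and its sign turned, to -0.16 on summed TPM and to -0.035 under the germ cell marker scaling, the latter with the median of all features at -0.52. None of the 11 passed by edgeR or DESeq2, as 0.0% of all features, and 0 and 1 had an unadjusted p under 0.05.

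All 3 Nrf1 cKO libraries held less MMERVK10C-int than both WT libraries. Over both DNMT3C states the Nrf1 effect on MMERVK10C-int was -0.53 on the log2 scale (standard error 0.21, adjusted p = 0.589 from edgeR), and on RLTR10B -0.56 (standard error 0.24, adjusted p = 0.594 from edgeR). These were the 2 subfamilies of 11 with an unadjusted p under 0.05, both lower, beside 3.21% of all element subfamilies that were lower at that p. Neither edgeR nor DESeq2 called any, against 0.0% of element subfamilies and 0.00443% of all features by edgeR and 0.156% of features by DESeq2. Germ cell markers moved in the same direction as these values, and scaled to equal germ cell markers the estimates turned positive for all 11 subfamilies. That scaling moved the median of all features by 1.04, and relative to the median all 11 stayed below 0, between -0.56 and -0.13. MMERVK10C-int was then 62.0 ± 8.62 (SD, n = 2) scaled CPM in WT, 167 ± 16.6 in Dnmt3C KO, with 91.3 ± 47.2 for Nrf1 cKO and 241 ± 51.8 for dKO (SD, n = 3), an Nrf1 effect of 0.54 (adjusted p = 0.153 from edgeR). The sign of the Nrf1 estimates thus depends on the scaling. The scaling moves all features of a library by a common factor. A place relative to the median is therefore kept by construction and tests nothing.

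A ratio to IAPEz-int within each library does not use a scaling. IAP elements are another young ERVK group whose LTRs are methylated in the male germline. The ratio of MMERVK10C-int to IAPEz-int was 0.262 ± 0.0524 (SD, n = 2) in WT, 0.373 ± 0.0477 in Dnmt3C KO, with 0.155 ± 0.0144 for Nrf1 cKO and 0.457 ± 0.127 for dKO (SD, n = 3). All 6 libraries without DNMT3C were above the other 5, and all 3 Nrf1 cKO libraries were below WT. Between NRF1-deleted and NRF1-intact libraries the mean log2 ratio differed by -0.24, with p = 0.34 in a two-sided exact permutation test over 200 regroupings within DNMT3C states. The 2 states differed in sign, at -0.75 with DNMT3C present and 0.26 with it absent. Against the sum of all IAP internal subfamilies the values were -0.81 and -0.00090 (exact permutation p = 0.085 for the mean of -0.40).

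**Figure D2:**
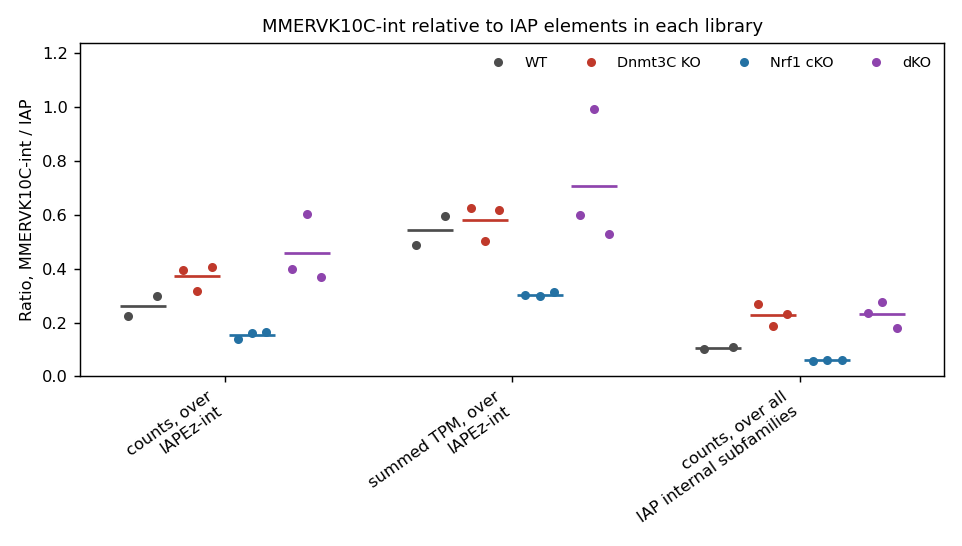
Ratio of MMERVK10C-int to IAPEz-int in counts, the same from summed TPM of copies, and the ratio to all IAP internal subfamilies in counts, on a linear axis from 0. Points are libraries and lines are genotype means. The Nrf1 cKO libraries are lowest in all 3 ratios, and the WT and Dnmt3C KO points overlap in the TPM ratio.

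Neighbouring copies on 1 strand that lie within 1000 bp of each other were joined into loci, which gave 6851 loci, 2081 of them with reads. Sorting these loci by structure alone separated loci with unlike levels. Long proviruses, with at least 4000 bp of MMERVK10C-int and an LTR at both ends, numbered 234 and held 53.6% of all reads. The longest annotated MMERVK10C-int copy was 7676 bp, so many of these are not complete. Their summed CPM, from the reads of their copies, was 34.9 and 37.5 in WT, 334, 152 and 183 in Dnmt3C KO, with 14.1, 26.3 and 24.98 for Nrf1 cKO and 246, 157 and 118 for dKO. The means were 36.2 ± 1.86 (SD, n = 2), 223 ± 97.7, 21.8 ± 6.69 and 174 ± 65.4 (SD, n = 3), ratios of 6.17 for Dnmt3C KO over WT and 7.97 for dKO over Nrf1 cKO. The 6 libraries without DNMT3C lay above the other 5 with no overlap. Neither this sum nor those of the other structures below was scaled to germ cell markers. The mean log2 level of those markers was 2.93 in dKO and 2.204 in Nrf1 cKO, and 3.69 in Dnmt3C KO and 3.46 in WT. Their part in the ratios was not tested.

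Loci with as much MMERVK10C-int but no LTR, 66 in all, had overlapping levels in WT and Dnmt3C KO. They had 26.0 and 16.2 CPM in WT and 28.3, 16.6 and 22.9 in Dnmt3C KO, a ratio of means of 1.07. In Nrf1 cKO they had 8.26, 9.74 and 10.1, and in dKO 21.7, 13.5 and 13.5, a ratio of 1.74. Both WT libraries were above all 3 Nrf1 cKO libraries, as the germ cell markers were. The fragment at chr11:98067706-98072768 held 57.0% of these reads, and without it the ratios were 0.782 and 1.247 and WT and Nrf1 cKO overlapped. With an LTR at 1 end the ratios were 0.939 and 2.14 (26 loci), a sum in which the locus at chr11:101648508-101653089 held 92.7% of the reads. Without it the other 25 loci had 0.236 ± 0.219 CPM (SD, n = 2) in WT, against 0.915 ± 0.307 in Dnmt3C KO, with 0.110 ± 0.0994 for Nrf1 cKO and 0.943 ± 0.270 for dKO (SD, n = 3), and all 6 libraries without DNMT3C were above the other 5.

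Shorter MMERVK10C-int loci between a pair of LTRs (174 loci) differed by less, from 15.4 ± 0.180 (SD, n = 2) in WT to 40.1 ± 14.4 in Dnmt3C KO and from 11.8 ± 3.69 in Nrf1 cKO to 38.9 ± 8.26 in dKO (SD, n = 3), and the DNMT3C states did not overlap. Without the locus with most reads, at chr5:26071473-26075195, the ratios went from 2.61 and 3.31 to 4.04 and 5.29. The RLTR10-int proviruses with an LTR at both ends (773 loci) did not separate, at 24.1 ± 2.98 CPM in WT, 22.6 ± 6.55 in Dnmt3C KO, with 16.8 ± 3.94 for Nrf1 cKO and 23.9 ± 4.49 for dKO. Those with an LTR at 1 end (279 loci) did, from 3.12 ± 0.286 (SD, n = 2) in WT to 7.17 ± 2.22 in Dnmt3C KO (SD, n = 3), ratios of 2.30 and 2.43 over the matching controls, and so did shorter MMERVK10C-int loci with an LTR at 1 end (185 loci), with ratios of 2.44 and 3.23, which were 1.51 and 1.89 without the 2 loci with most reads, where the states overlapped. The 4667 loci made of LTRs only did not, at 17.7 ± 1.46, 19.97 ± 3.93, 13.9 ± 3.72 and 18.8 ± 2.98. The level of an LTR subfamily as a whole thus mixed LTRs of proviruses with lone ones.

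**Figure D3:**
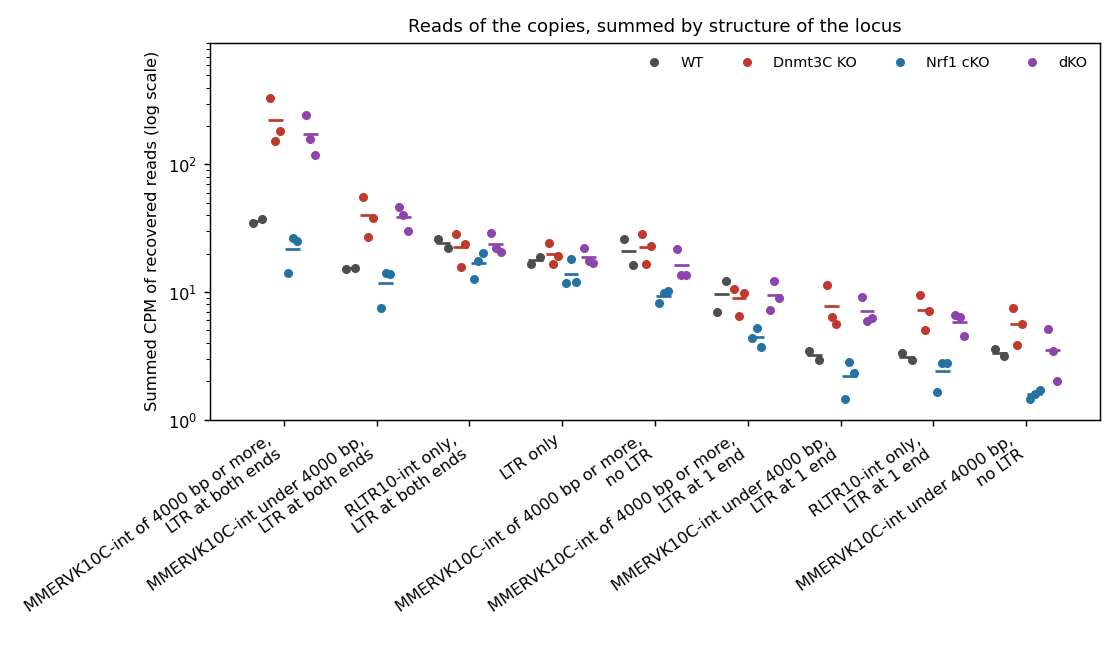
CPM (log scale) of the reads summed over the loci of each structural class that held over 1% of the reads. Points are libraries and lines are genotype means. The proviruses with at least 4000 bp of MMERVK10C-int and LTRs at both ends are the class with the widest gap between the libraries with and without DNMT3C.

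Among loci with 4000 bp or more of MMERVK10C-int, those with RLTR10C at both ends (183 loci) held 79.3% of the reads. They went from 28.2 and 32.5 CPM in WT to 327, 147 and 177 in Dnmt3C KO, and from 11.9, 21.5 and 21.3 in Nrf1 cKO to 238, 152 and 112 in dKO. The 10 loci with RLTR10B2 at both ends had 6.34 and 4.599 CPM in WT and 4.596, 3.10 and 4.10 in Dnmt3C KO, all below WT, and 1.85 to 4.44 CPM in Nrf1 cKO overlapped with 2.75 to 5.68 in dKO. The loci at chr3:40878368-40887027 and chr2:28486553-28493580 held 93.6% of these reads, and the other 8 had means of 0.135, 0.455, 0.058 and 0.378 CPM in WT, Dnmt3C KO, Nrf1 cKO and dKO. Among shorter MMERVK10C-int loci with at least 100 reads, all 5 with RLTR10B2 at both ends had the 6 libraries without DNMT3C above the other 5. At that limit 63 of 130 loci of all structures and 55 of 328 IAP loci did. A silent locus reaches 100 reads only through libraries where it is high, so this is a description. The 14 with RLTR10F at both ends had 32 reads in all libraries together. Of the RLTR10C loci, 139 spanned 6500 to 7800 bp and went from 23.2 ± 2.202 (SD, n = 2) to 151 ± 71.4 (SD, n = 3) CPM in Dnmt3C KO. The 13 of 8000 to 9000 bp went from 2.77 ± 1.52 to 23.6 ± 6.63, and in both lengths all 6 libraries without DNMT3C were above the other 5.

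The number of MMERVK10C-int copies with at least 10 reads also differed. It was 53 and 50 in WT, 189, 123 and 131 in Dnmt3C KO, with 25, 44 and 29 for Nrf1 cKO and 160, 136 and 110 for dKO. These counts are not corrected for depth, from 525115 element reads in Nrf1 cKO replicate 1 to 1071134 in WT replicate 1. Copies of all elements above 0 numbered 98445 and 206978 in these libraries. Reads were concentrated: the top copy held 6.29% of all MMERVK10C-int reads, the top 10 held 31.2% and the top 50 held 63.4%. The sources give up to 100 alignments per read and a program that shares such reads out between copies, so values of near-identical copies are uncertain. A pair of loci shows this. The proviruses at chr2:5554336-5561429 (plus strand, intron of Camk1d) and chr4:153742571-153749664 (plus strand, intergenic) are both 7094 bp long and had similar reads in most libraries, 301, 24 and 131 against 239, 27 and 130 in Dnmt3C KO and 116, 49 and 46 against 111, 50 and 24 in dKO, where the third library differed by the highest ratio. Whether they share reads was not tested.

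The locus with most reads lies at chr8:47465631-47479412 (plus strand, intergenic, nearest gene Trappc11) and is a tandem of proviruses that share a middle LTR. It had 87 and 57 reads in WT, 1907, 946 and 936 in Dnmt3C KO, with 40, 50 and 18 for Nrf1 cKO and 1417, 548 and 432 for dKO. In CPM this was 2.03 ± 0.449 (SD, n = 2), 36.2 ± 16.3, 1.09 ± 0.349 and 23.3 ± 14.4 (SD, n = 3). The shared LTR, RLTR10C_dup837 at chr8:47472306-47472737, had 7 and 9 reads in WT and 456, 219 and 196 in Dnmt3C KO, with 8, 5 and 6 for Nrf1 cKO and 290, 129 and 33 for dKO. All libraries without DNMT3C were far above the others at this locus.

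The provirus at chr3:96508210-96515310 (minus strand, intergenic, nearest gene Hfe2) came next, with 135 and 90 reads in WT, 1316, 553 and 640 in Dnmt3C KO, with 59, 109 and 75 for Nrf1 cKO and 1023, 343 and 361 for dKO. Another on the same chromosome, at chr3:96313466-96320576 (minus strand, intergenic), had 66 and 44 reads in WT, 464, 236 and 235 in Dnmt3C KO, with 12, 60 and 50 for Nrf1 cKO and 464, 569 and 314 for dKO. Unlike the 2 loci above, it was at least as high in dKO as in Dnmt3C KO, at 13.4 and 8.93 CPM on average, a difference that was not tested. The provirus at chr16:4343208-4351653 (plus strand) lies in an intron of Adcy9, an adenylate cyclase gene, and went from 33 and 40 reads in WT to 394, 239 and 277 in Dnmt3C KO, with 9, 11 and 12 for Nrf1 cKO and 275, 221 and 102 for dKO.

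Some proviruses were all but silent with DNMT3C present. The one at chr1:177653245-177660348 (minus strand, intergenic) had 0 and 2 reads in WT and 2, 4 and 3 in Nrf1 cKO, against 299, 174 and 108 in Dnmt3C KO and 381, 107 and 44 in dKO. The provirus in an intron of Megf11, at chr9:64410504-64417609 (minus strand), had 6 and 6 reads in WT, 360, 169 and 109 in Dnmt3C KO, with 6, 11 and 5 for Nrf1 cKO and 205, 106 and 41 for dKO. At chr14:33980297-33987382 (plus strand, intergenic) the reads were 6 and 4, 500, 111 and 136, 4, 1 and 11, and 196, 75 and 29 in the same order of genotypes. A provirus with RLTR10B at both ends, at chr1:138803191-138809070 (minus strand, intergenic, nearest gene Lhx9), had 5 and 3 reads in WT, 179, 93 and 107 in Dnmt3C KO, with 2, 3 and 4 for Nrf1 cKO and 144, 109 and 33 for dKO. All of these separated the libraries by DNMT3C state without overlap.

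**Figure D4:**
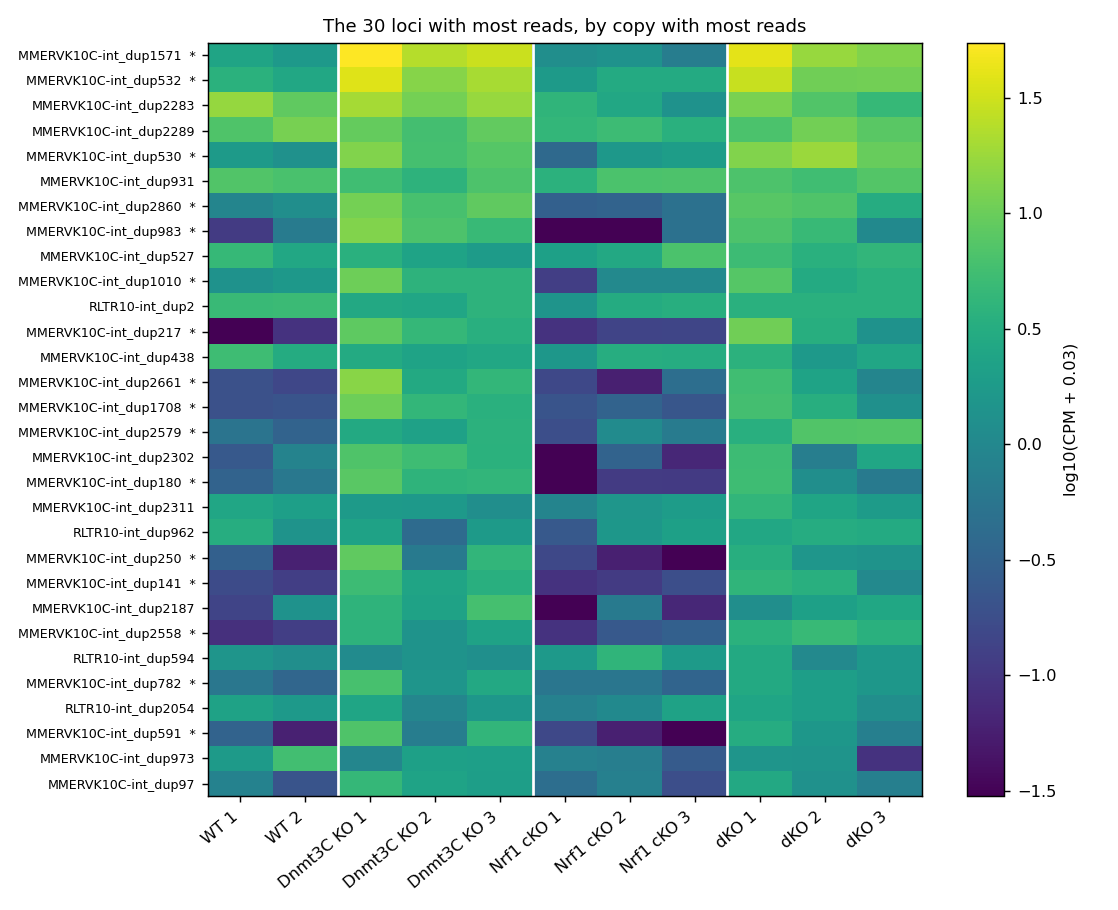
The 30 loci with most reads (named by their copy with most reads) in each library, coloured by log10 of CPM plus 0.03. White lines part the genotypes, and a star marks the 16 loci where all 6 libraries without DNMT3C were above the other 5.

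Other loci had reads in WT and overlapping levels in Dnmt3C KO. The fragment at chr11:98067706-98072768 (plus strand, intergenic, 4071 bp of MMERVK10C-int, no LTR) had 614 and 291 reads in WT, 691, 443 and 534 in Dnmt3C KO, with 133, 99 and 35 for Nrf1 cKO and 430, 233 and 148 for dKO. In CPM its means were 12.7 in WT and 16.0 in Dnmt3C KO, with 2.696 for Nrf1 cKO and 7.94 for dKO. All 3 Nrf1 cKO libraries were below WT, as the germ cell markers were, and below all 3 dKO libraries. The locus at chr11:101648508-101653089 (plus strand, intergenic), which has an RLTR10E at its 5′ end only, had 256 and 390 reads in WT, 326, 227 and 284 in Dnmt3C KO, with 143, 186 and 91 for Nrf1 cKO and 234, 359 and 258 for dKO. Some loci with RLTR10C at both ends also had no higher mean in Dnmt3C KO than in WT. A shorter provirus at chr5:26071473-26075195 (plus strand, intergenic) had 265 and 211 reads in WT and 191, 149 and 213 in Dnmt3C KO, and a long one at chr12:8621018-8628126 (minus strand, intergenic) had 94 and 69 in WT and 61, 65 and 38 in Dnmt3C KO.

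Both loci below have other LTRs and were lower on average in Dnmt3C KO than in WT. The provirus at chr3:40878368-40887027 (minus strand), with RLTR10B2 at both ends and over an exon of 6430590A07Rik on the same strand, had 194 and 100 reads in WT, 103, 91 and 85 in Dnmt3C KO, with 52, 119 and 80 for Nrf1 cKO and 131, 56 and 83 for dKO. An RLTR10-int locus with RLTR10 at both ends, in an intron of Gin1 at chr1:97778588-97781689 (plus strand), had 180 and 168 reads in WT, 95, 99 and 119 in Dnmt3C KO, with 47, 111 and 84 for Nrf1 cKO and 125, 113 and 116 for dKO. In CPM every Dnmt3C KO, Nrf1 cKO and dKO library of the Gin1 locus was below both WT libraries. Reads of loci in introns or exons can come from the host gene, and their part was not tested.

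Of the 130 loci with at least 100 reads over all libraries, 63 had all 6 libraries without DNMT3C above the other 5. These were 43 of 68 long proviruses with LTRs at both ends, 15 of 24 shorter MMERVK10C-int loci with LTRs at both ends, 1 of 12 RLTR10-int loci with LTRs at both ends, and, with an LTR at 1 end, 2 of 4 shorter MMERVK10C-int loci and 2 of 5 RLTR10-int loci. None was among the 7 loci of LTRs only, the 7 long and 2 shorter MMERVK10C-int loci with no LTR and the 1 long locus with an LTR at 1 end. Joined and limited in the same way, 55 of 328 IAP loci (16.8%) separated. Among single copies with at least 100 reads 53 of 133 of MMERVK10C-int and RLTR10 did, against 157 of 12064 copies of all elements (1.3%). The limit of 100 reads admits a silent locus only through the libraries where it is high, so these shares describe the loci and do not test them. With single libraries left out the count lay between 63 and 70.

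**Figure D5:**
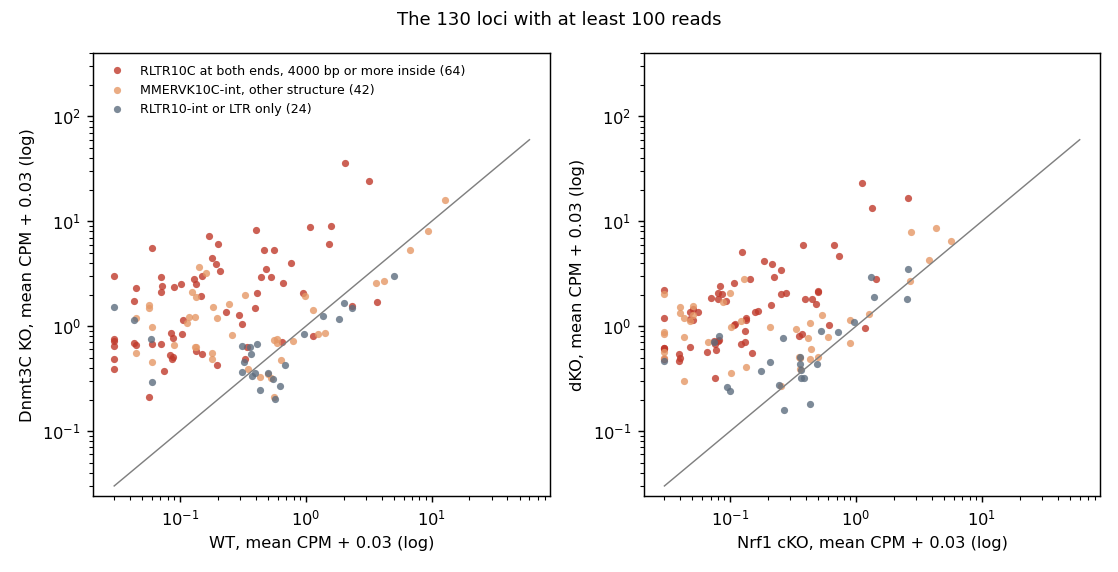
Mean CPM (log scales, 0.03 added) of the 130 loci in Dnmt3C KO against WT and in dKO against Nrf1 cKO, coloured by structure, with the line of equal levels. Of the 64 loci with RLTR10C at both ends and at least 4000 bp of MMERVK10C-int, 61 lie above the line on the left and 63 on the right. Of the 42 MMERVK10C-int loci of other structure 30 and 41 do, and of the 24 RLTR10-int or LTR loci 10 and 18 do.

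Single copies were tested among all element copies. With limma on log2(TPM + 1), 917 of the 3682 copies had at least 1 TPM in 2 libraries and entered the test with 258372 copies in all. For the effect of DNMT3C loss 3 were called, all higher, against 0.00348% of all copies called higher. They were RLTR10C_dup837, the LTR in the chr8 tandem (adjusted p = 2.62e-05 from limma), RLTR10B_dup28 in the RLTR10B provirus at chr1:138803191-138809070, and RLTR10B_dup453 at chr19:8634462-8634495, which is 34 bp long and held 1 to 7 reads in each library without DNMT3C and 0 in the others. RLTR10B_dup28 had 44, 22 and 22 reads in Dnmt3C KO and 26, 18 and 11 in dKO, with 0 in all 5 other libraries. At an unadjusted p under 0.05, 168 of the 917 copies (18.3%) were higher and 2 lower, beside 1.87% of all copies higher. Copies enter this test through the libraries where they are high, so the counts over them are a description.

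A count test on the reads recovered from the TPM values, chosen after seeing the data, called 45 of 276 copies with enough reads, all higher, against 0.414% of all copies tested (edgeR, adjusted p under 0.01). They were 40 MMERVK10C-int copies, 3 of RLTR10C, 1 of RLTR10B and 1 of RLTR10-int. Here too a copy with few reads in WT passes the read filter through the libraries without DNMT3C, so the count and its direction describe these copies and support nothing further. MMERVK10C-int_dup1577, the 5084 bp internal part of the second provirus in the chr8 tandem, went from 75 and 35 reads in WT to 1091, 555 and 631 in Dnmt3C KO and from 14, 41 and 11 in Nrf1 cKO to 796, 286 and 214 in dKO, a log2 fold change of 4.05 (edgeR). MMERVK10C-int_dup532, the internal part at chr3:96508641-96513739, had 113 and 69 reads in WT, 1074, 440 and 512 in Dnmt3C KO, with 53, 80 and 73 for Nrf1 cKO and 843, 261 and 287 for dKO, a log2 fold change of 2.75 (adjusted p = 0.00156 from edgeR). In the Nrf1 effect and in the interaction neither limma nor edgeR called any of these copies, against 0.00116% of all copies for the Nrf1 effect by limma and 0.0% in the other 3 tests. At an unadjusted p under 0.05 the Nrf1 effect had 18 of 917 copies lower by limma (1.96%, beside 2.79% of all copies) and 3 higher (1.1% of all copies). By edgeR on reads it had 22 of 276 lower (7.97%, beside 2.31% of all copies) and 5 higher (0.968% of all copies).

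The 10 copies with the highest mean TPM were mostly short pieces, since TPM divides by length, and most did not separate the genotypes. MMERVK10C-int_dup972 (175 bp, chr5:92513496-92513670) led with 62 and 186 reads in WT, 29, 83 and 64 in Dnmt3C KO, with 23, 26 and 6 for Nrf1 cKO and 53, 43 and 0 for dKO. MMERVK10C-int_dup2286 (268 bp) had 73 and 47 reads in WT and 88, 74 and 71 in Dnmt3C KO. RLTR10D_dup351 (387 bp) had 48 and 77 reads in WT, 44, 44 and 34 in Dnmt3C KO, with 23, 61 and 11 for Nrf1 cKO and 31, 21 and 55 for dKO. Apart from RLTR10C_dup837, MMERVK10C-int_dup1714 (184 bp, in the Megf11 provirus) differed most, with 5 and 6 reads in WT and 118, 47 and 53 in Dnmt3C KO, though 1 dKO library had 0.

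By position, 954 of the 1188 MMERVK10C-int copies were intergenic and held 76.6% of their reads. Another 182 lay in introns (18.8%), 28 over exons on the same strand (2.41%) and 24 over exons on the other strand only (2.25%).

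A list of 22 genes known to silence endogenous retroviruses or to methylate DNA was measured in the same libraries, and all 22 were found. It holds the H3K9 methyltransferase Setdb1 and its partner Trim28, the DNA methyltransferases, the piRNA factors Piwil2 and Piwil4, and the remodeller Hells, which is required for methylation of repeats. In the DNMT3C effect edgeR called 0 of 22, with 1 higher at an unadjusted p under 0.05, as 1.9% of all features were, and DESeq2 called 0 too. In the Nrf1 effect edgeR called 0, with 5 at an unadjusted p under 0.05, all lower, beside 4.32% of all features lower at that p, and DESeq2 called 0 too, where 0.00443% of all features were called by edgeR. Scaled to equal germ cell markers, edgeR called 10 of 22 and 15 had an unadjusted p under 0.05, all higher, against 40.9% of all features called. The 4 with the smallest p in the DNMT3C effect were Hells, Tex15, Morc1 and Suv39h2, at 0.34, 0.73, 0.58 and 0.18 on the log2 scale with standard errors of 0.15, 0.38, 0.33 and 0.12 and adjusted p of 1 from edgeR. Tex15, a germ cell factor of piRNA-directed methylation, had 62.7 and 75.5 CPM in WT and 37.6, 11.3 and 12.4 in Nrf1 cKO, where germ cell markers were lower too.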

How the data were processed

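RNA of whole P5 testes was sequenced for 11 libraries. The authors aligned reads with STAR 2.7.3a to GRCm38, keeping up to 100 alignments, and deposited raw counts per gene and element subfamily from TEtranscripts in tables for pairs of genotypes. Per-copy values came from TElocal, and the authors deposited them as TPM. The authors left out replicates with low RNA integrity. The columns of the count tables agreed wherever a library was in several. TPM values were whole multiples of the value of 1 read in each library (100% within 0.01), and these multiples are the reads given per copy. CPM were computed with TMM library sizes over genes and subfamilies. Copies lie on GRCm38.

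Counts were tested with edgeR 4.0.16 (filterByExpr, TMM, quasi-likelihood test), for each pair of genotypes and for both states in an additive model, plus their interaction. TPM were tested with limma 3.58.1 on log2(TPM + 1) for copies of at least 1 TPM in 2 libraries, which understates the change of low copies. Benjamini-Hochberg adjustment ran over all features, with a threshold of 0.01. Alternatives were DESeq2 1.42.0, other size factors, filters, thresholds, pseudocounts, a replicate block, scaling to germ cell markers, summed TPM and leaving out each library. The tests were checked on simulated data. The copies named are the 10 with the highest mean TPM, the 10 with the smallest p in the DNMT3C effect, and the loci with most reads, the latter chosen after seeing the data. The members and lists were chosen with earlier results of these data known. Intervals are given as standard errors or SD. The depth of 525115 to 1071134 element reads per library leaves most copies with under 10 reads, where only large differences can be seen.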

Additional observations from a re-analysis of the deposited data

Results flagged for a closer look

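The 11 subfamilies with IAPEz-int, the 20 copies chosen by rule and the 25 loci with most reads were each looked at for opposite movement, where every library of 1 genotype lay to 1 side of its control mean and every library of the matching genotype in the other background to the opposite side. The values below are differences between both log2 fold changes of group means, double-deficient side minus the other. The differences of group means were not themselves tested, and the comparisons share libraries. For subfamilies and copies the interaction fit comes nearest, and the loci were not fitted. The subfamily RLTR10 was lower in all Dnmt3C KO libraries than the WT mean and higher in all dKO libraries than the Nrf1 cKO mean, a difference of 0.79. Its interaction was 0.80 with a standard error of 0.38 (adjusted p = 0.903 from edgeR). The short copies MMERVK10C-int_dup929 and MMERVK10C-int_dup1017 went the opposite way in TPM, at -0.82 and -1.02, while in CPM of their reads the differences were -0.062 and -0.33. Their interactions in TPM were -0.78 and -1.11 (adjusted p = 0.920 and 0.829 from limma). The RLTR10C provirus at chr12:8621018-8628126 differed by 1.58 in both the DNMT3C and the NRF1 contrast, with 94 and 69 reads in WT, 61, 65 and 38 in Dnmt3C KO, with 28, 56 and 48 for Nrf1 cKO and 148, 79 and 60 for dKO. RLTR10-int loci did likewise at chr1:97778588-97781689, by 1.17, and at chr7:78898962-78901831 over an exon of Aen, by 1.80. In the NRF1 contrast alone, the locus at chr5:26071473-26075195 differed by 0.55 and the Megf11 provirus at chr9:64410504-64417609 by -1.21.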

How the results depend on the processing

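Of 1042 values recomputed under another setting, 916 were labelled the same. For an estimate this means the same sign and side of the threshold, also where it was called in neither setting. For a count it means an equal or similar number. In the DNMT3C effect 1 subfamily was called, against 3 with an adjusted p under 0.05, 3 with no filter, 3 with DESeq2, 3 on summed TPM, 0 with the replicate block, 0 scaled to equal germ cell markers and 0 to 2 with each library left out. Counts of 0 in the pairs became 3 with no filter, 3 with DESeq2, 3 with the replicate block and 0 to 1 with each library left out for Dnmt3C KO against WT. They became 1 with no filter and 1 with the block for Nrf1 cKO against WT, 2 with no filter, 2 with DESeq2 and 1 with the block for dKO against WT, and 2 with no filter and 3 with DESeq2 for dKO against Nrf1 cKO. Of 3 copies called in the DNMT3C effect there were 7 at an adjusted p under 0.05, 0 with every copy above 0 TPM, 5 with the block, 45 with edgeR on recovered reads and 2 to 6 with each library left out (5 without Nrf1 cKO replicate 2 and 6 without dKO replicate 3). The cause of these differences was not tested.

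Same-numbered libraries were treated as unpaired. Their deviations from genotype means correlated between -0.233 and 0.221 (15 pairs, 3 above 0.1), beside -0.258 to 0.299 in 30 pairs of other numbers. With so few libraries per genotype these values cannot show whether litters were shared. The ratio to IAPEz-int had -0.27 with the block (exact permutation p = 0.375) and -0.35 to -0.14 with each library left out. Scaled to equal germ cell markers, the DNMT3C effect turned to -0.39 for RLTR10, -0.031 for RLTR10-int, -0.050 for RLTR10A, -0.50 for RLTR10D, -0.49 for RLTR10F and -0.27 for MMERVK10C-int_dup1017. With the median of all features moved by 1.04, the NRF1 effect turned to 0.74 for IAPEz-int, 0.54 for MMERVK10C-int, 0.91 for RLTR10, 0.79 for RLTR10-int, 0.76 for RLTR10A, 0.48 for RLTR10B, 0.87 for RLTR10B2, 0.90 for RLTR10C, 0.90 for RLTR10D, 0.84 for RLTR10D2, 0.72 for RLTR10E and 0.62 for RLTR10F. The interaction of MMERVK10C-int turned to -0.035 with that scaling and to -0.16 on summed TPM. On summed TPM the DNMT3C effect was -0.019 for RLTR10, and the NRF1 effect was 0.0047 for RLTR10B2 and 0.091 for RLTR10D2. With each library left out, the DNMT3C effect changed sign within -0.094 to 0.32 for RLTR10D, -0.13 to 0.052 for RLTR10E, -0.28 to 0.34 for RLTR10F, -1.29 to 0.18 for MMERVK10C-int_dup972, -0.17 to 0.35 for MMERVK10C-int_dup1017 and -0.44 to 0.048 for RLTR10D_dup351, and the NRF1 effect within -0.27 to 0.028 for RLTR10. Most copies hold so few reads that only large differences can be seen at this depth.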
